A study of Mus musculus with 16 samples.

Results

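The ID proteins and their E-protein partners were described through 5 genes chosen by name: *Id1*, *Id2* and *Id3*, which encode the inhibitors, and *Tcf4* and *Tcf12*, which encode E proteins. All 5 were found among the 50686 genes of the count files, and all 5 had counts high enough to be tested in each of the 7 comparisons. The cells were transformed mouse bone marrow lines of the C57BL/6N strain that carry the BCR-ABL1p185 oncogene. There were 4 wild-type lines, which the study's methods describe as carrying a loxP-flanked *Cdk8* gene (Cdk8 fl/fl), and 4 Cdk8-ko lines (Cdk8 Δ/Δ), in which Cre under the control of the *Vav* promoter, active in blood cells, had removed part of *Cdk8*. Each line was sampled once as control, in 0.01% DMSO, and once after 48 h in 1 µM senexin B, an inhibitor of the kinases CDK8 and CDK19. This gave 16 mRNA libraries in 4 groups of 4. All 8 lines express BCR-ABL1, so no group stands for untransformed bone marrow, and the labels do not say how many mice the lines came from.

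E proteins are basic helix-loop-helix transcription factors that bind a short DNA element, the E-box (CANNTG), as dimers. ID proteins have the helix-loop-helix but lack the basic region that touches DNA, so an E protein held by an ID protein cannot bind its E-box. In bone marrow, E-protein activity is needed for B-lineage commitment, for expression of the surrogate light chain and for rearrangement of the immunoglobulin genes, and ID proteins set how much of that activity is free. *Id* genes are known targets of BMP signalling through SMAD proteins and of the EGR transcription factors. *Tcf3*, which encodes the E proteins E12 and E47, and *Id4* complete the family and are given below for context.

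The libraries held between 13145876 and 18349425 counts assigned to genes. CPM are counts per 1000000 assigned reads, with each library total scaled by its TMM normalisation factor. The 9 markers of the B lineage were above 1 CPM in every group and summed to between 5258 and 7933 CPM per library. The 6 T cell markers summed to at most 0.346 CPM, the 4 erythroid ones to at most 1.49 CPM and the 3 stromal ones to at most 2.20 CPM. The NK cell list reached 81.3 CPM in Cdk8-ko senexin B line 4, all of it *Klrb1c*, while *Ncr1*, which defines NK cells, was at 0 in all 16 libraries. The 5 myeloid markers summed to between 0.440 and 24.7 CPM and the 5 markers of plasmacytoid dendritic cells to between 14.3 and 51.0 CPM. These are bulk libraries, in which fewer cells expressing a gene and less RNA per cell cannot be told apart. *Cdk8*, the targeted gene, was counted at 61.7 to 68.6 CPM in the wild-type control lines and at 35.3 to 52.0 CPM in the Cdk8-ko control lines, groups that did not overlap. The count covers the whole gene, including any exons outside the deleted part, so the level does not measure functional *Cdk8*. The source of the remaining counts in the Cdk8-ko lines was not tested.

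*Tcf12* was the most abundant of the 5 on the CPM scale, at 187 to 340 CPM over the 16 libraries, followed by *Tcf4* at 88.0 to 211 CPM. *Id3* lay between 4.13 and 119 CPM, *Id2* between 2.51 and 52.5 CPM and *Id1* between 0.0735 and 16.1 CPM. The E-protein genes therefore varied 1.82-fold (*Tcf12*) and 2.40-fold (*Tcf4*) between the lowest and the highest library, and *Id2* and *Id3* varied 20.9-fold and 28.8-fold. *Id1* was the most sparsely counted, with 1 to 210 reads per library, and its lowest library, Cdk8-ko control line 4, rests on 1 read.

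Levels of different genes were compared per kilobase of gene model, as CPM per kb. The median over the 16 libraries was 18.5 CPM per kb for *Id3*, 15.8 for *Tcf12*, 9.78 for *Id2*, 5.37 for *Tcf4* and 1.67 for *Id1*. The ranges of *Id3* (2.30 to 66.2 CPM per kb) and *Tcf12* (12.04 to 21.9 CPM per kb) overlapped, as did those of *Tcf12* and *Id2* (1.98 to 41.3 CPM per kb) and those of *Id2* and *Tcf4* (3.21 to 7.70 CPM per kb). *Tcf3* was far above both E-protein partners, with group means of 101 to 120 CPM per kb and 261 to 616 CPM over the libraries. *Id4* had 0 counts in all 16 libraries. The annotated gene models of *Tcf4* and *Tcf12* span 27382 and 15529 bases of merged exons from many isoforms, against 1160, 1270 and 1791 bases for *Id1*, *Id2* and *Id3*, so a level per kb of these 2 genes divides by more bases than a single transcript has.

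**Figure D1:**
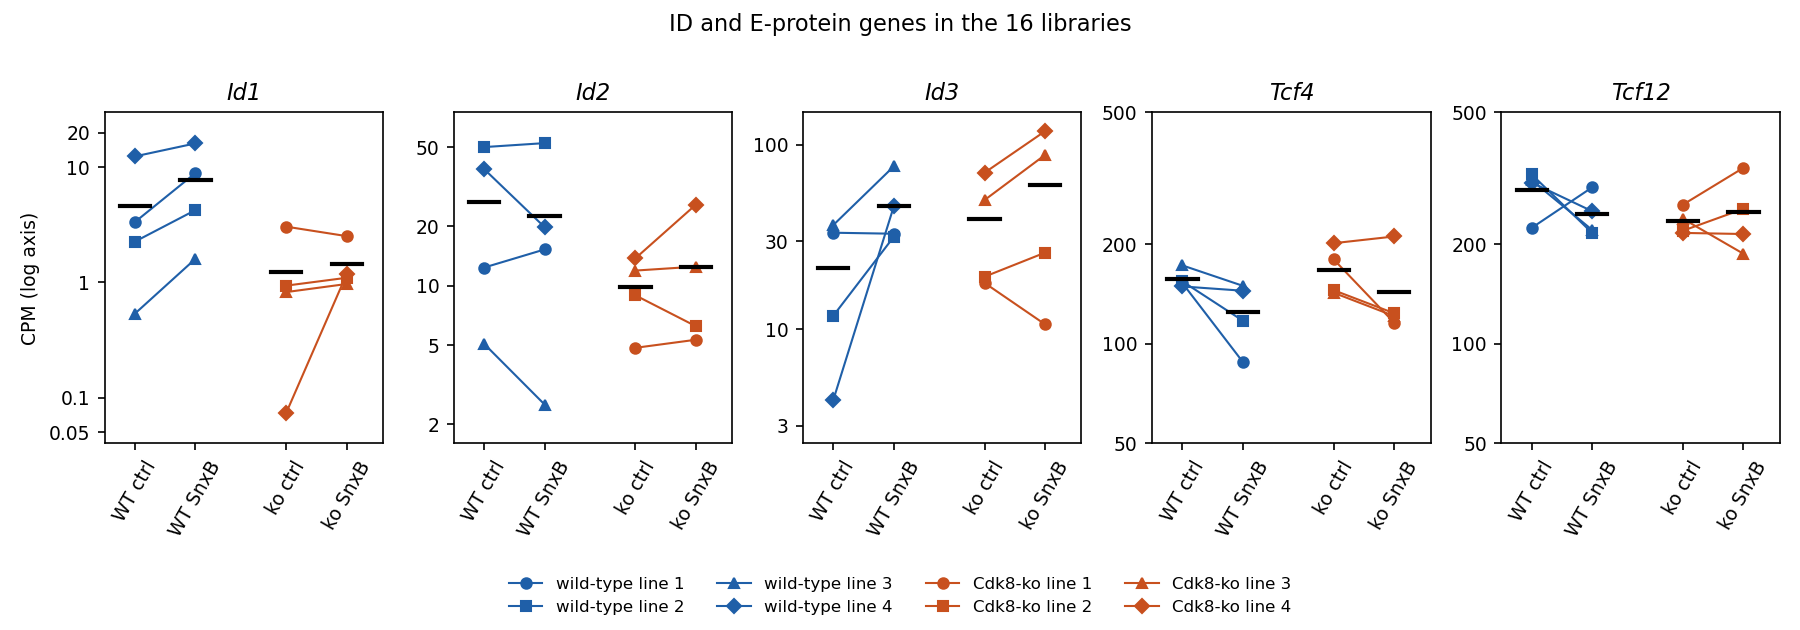
CPM on a log axis, with a separate range in each panel, of the 5 genes in the 16 libraries: wild-type (WT) in blue and Cdk8-ko (ko) in orange, in control (ctrl) and in senexin B (SnxB). Each thin line joins the control and senexin B libraries of 1 line and the black bars are group means (n = 4). The ID genes spread widely between lines of the same group, the *Tcf4* and *Tcf12* values lie close together, and the lowest *Id1* point (0.0735 CPM) is a single read.

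In the GRCm38 assembly *Id1* (ENSMUSG00000042745) lies on chromosome 2 from 152736251 to 152737410 on the plus strand, *Id2* (ENSMUSG00000020644) on chromosome 12 from 25093801 to 25096092 on the minus strand, and *Id3* (ENSMUSG00000007872) on chromosome 4 from 136143497 to 136145755 on the plus strand. *Tcf4* (ENSMUSG00000053477) lies on chromosome 18 from 69343356 to 69689079 on the plus strand and *Tcf12* (ENSMUSG00000032228) on chromosome 9 from 71842688 to 72111871 on the minus strand. Reads were counted over all annotated exons of a gene, coding and untranslated. No exon of the 5 genes overlapped an exon of another annotated gene (0 shared bases), so counting without strand did not mix them with a neighbour.

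The genotype comparison asked whether lines without CDK8 differ in these genes. *Id1*, *Id2* and *Tcf12* were lower on average in the Cdk8-ko control lines and *Id3* and *Tcf4* were higher, and none of the 5 passed the test. A gene was called when edgeR's quasi-likelihood test over all genes gave an adjusted p below 0.05 and the log2 fold change was beyond 1 in either direction. That rule called 1 of 13174 genes between the control groups (0.00759%), *Sva*, which is no relative of these genes and is named here after its value was seen. None of the 5 genes had control groups that did not overlap, which was true of 3.14% of all genes tested.

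*Id1*, an ID gene that responds to BMP signals, had 3.35, 2.26, 0.536 and 12.4 CPM in wild-type control lines 1 to 4 and 3.05, 0.938, 0.825 and 0.0735 CPM in Cdk8-ko control lines 1 to 4. The highest value was wild-type line 4 and the lowest Cdk8-ko line 4, and wild-type line 3 was below 3 of the Cdk8-ko lines. The means were 4.65 ± 5.33 CPM (SD, n = 4) and 1.22 ± 1.28 CPM (SD, n = 4). The log2 fold change of Cdk8-ko over wild-type was -1.91 (SE 1.08, adjusted p = 0.908). Without wild-type line 4 it was -0.73, and without Cdk8-ko line 1 it was -2.89.

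In senexin B the same 4 wild-type lines had 8.92, 4.25, 1.60 and 16.1 CPM of *Id1*, and the Cdk8-ko lines 2.52, 1.10, 0.970 and 1.18 CPM. Wild-type lines 1, 2 and 4 were above every Cdk8-ko line, and wild-type line 3 was below Cdk8-ko line 1, so the groups overlapped through 1 library of each. Groups that did not overlap were found for 0.999% of genes in senexin B. The log2 fold change was -2.40 (SE 0.70, unadjusted p = 0.00752, adjusted p = 1.00). Of the 13010 genes tested in senexin B, 1.55% had an unadjusted p under 0.05, *Id1* was number 16 in the order of p, and edgeR called 0 (0%), against 10 with DESeq2. With the control and senexin B counts of each line added, so that each line counted once, the wild-type lines had 5.81, 3.13, 1.09 and 14.1 CPM and the Cdk8-ko lines 2.79, 1.02, 0.900 and 0.645 CPM. The log2 fold change was -2.17 (SE 0.80, unadjusted p = 0.0267, adjusted p = 0.999), where 2.49% of all genes had an unadjusted p under 0.05 and 1 gene, again *Sva*, was called (0.00676%). These 3 comparisons share the same lines and are not separate evidence.

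*Id2*, an ID gene with high levels in innate lymphoid and NK cells, had 12.4, 50.1, 5.09 and 38.8 CPM in wild-type control lines 1 to 4 and 4.86, 8.94, 11.9 and 13.8 CPM in the Cdk8-ko control lines. Wild-type lines 2 and 4 lay above every Cdk8-ko line, line 1 lay among them and line 3 near their lower end. For *Id2* in control the log2 fold change was -1.42 (SE 0.68, adjusted p = 0.897). In senexin B the wild-type lines had 15.2, 52.5, 2.51 and 19.8 CPM and the Cdk8-ko lines 5.34, 6.24, 12.5 and 25.7 CPM, and the log2 fold change was -0.86 (SE 0.83, adjusted p = 1.00). Without wild-type line 2 the value in senexin B was -0.0037, and without Cdk8-ko line 4 it was -1.48. The groups overlapped in both media. *Klrb1c*, the one NK cell marker with a mean above 1 CPM in each group, reached 20.6 and 81.3 CPM in the control and senexin B libraries of Cdk8-ko line 4, the Cdk8-ko line with the highest *Id2*. In the wild-type lines, which held the highest *Id2* values of all, the NK cell list summed to at most 6.35 CPM in control and 6.05 CPM in senexin B. The part of *Klrb1c*-expressing cells in the *Id2* values was not tested.

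*Id3*, the ID gene that restrains E proteins in developing lymphocytes and in mature B cells, had 33.4, 11.8, 36.7 and 4.13 CPM in wild-type control lines 1 to 4 and 17.8, 19.3, 50.2 and 70.6 CPM in the Cdk8-ko control lines. Cdk8-ko lines 3 and 4 were the highest, and Cdk8-ko lines 1 and 2 lay within the wild-type range. Its log2 fold change was 0.88 (SE 0.71, adjusted p = 0.913) in control and 0.37 (SE 0.68, adjusted p = 1.00) in senexin B. With libraries left out in turn the value in control ran from 0.43, without Cdk8-ko line 4, to 1.26, without wild-type line 3, and in senexin B it was -0.17 without Cdk8-ko line 4. In senexin B the Cdk8-ko lines held both the lowest value (10.6 CPM, line 1) and the highest (119 CPM, line 4), while the wild-type lines lay between 31.7 and 76.5 CPM.

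*Tcf4*, the gene of the E protein E2-2, which is known for plasmacytoid dendritic cell and B-cell development, had 152, 154, 172 and 149 CPM in the wild-type control lines and 180, 145, 143 and 201 CPM in the Cdk8-ko control lines. All 8 lay within a 1.41-fold range, with Cdk8-ko lines holding both ends. Its log2 fold change was 0.093 (SE 0.14, adjusted p = 0.947) in control and 0.19 (SE 0.25, adjusted p = 1.00) in senexin B.

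*Tcf12*, the gene of the E protein HEB, had 224, 325, 312 and 307 CPM in the wild-type control lines and 263, 220, 239 and 216 CPM in the Cdk8-ko control lines. Wild-type lines 2, 3 and 4 were above every Cdk8-ko line, and wild-type line 1 was below Cdk8-ko lines 1 and 3. The log2 fold change was -0.31 (SE 0.14, unadjusted p = 0.0569, adjusted p = 0.897), with 5.32% of genes under an unadjusted 0.05. In senexin B the means were 246 ± 37.2 CPM (SD, n = 4) in wild-type and 249 ± 66.8 CPM (SD, n = 4) in Cdk8-ko lines, a log2 fold change of 0.020 (SE 0.22).

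**Figure D2:**
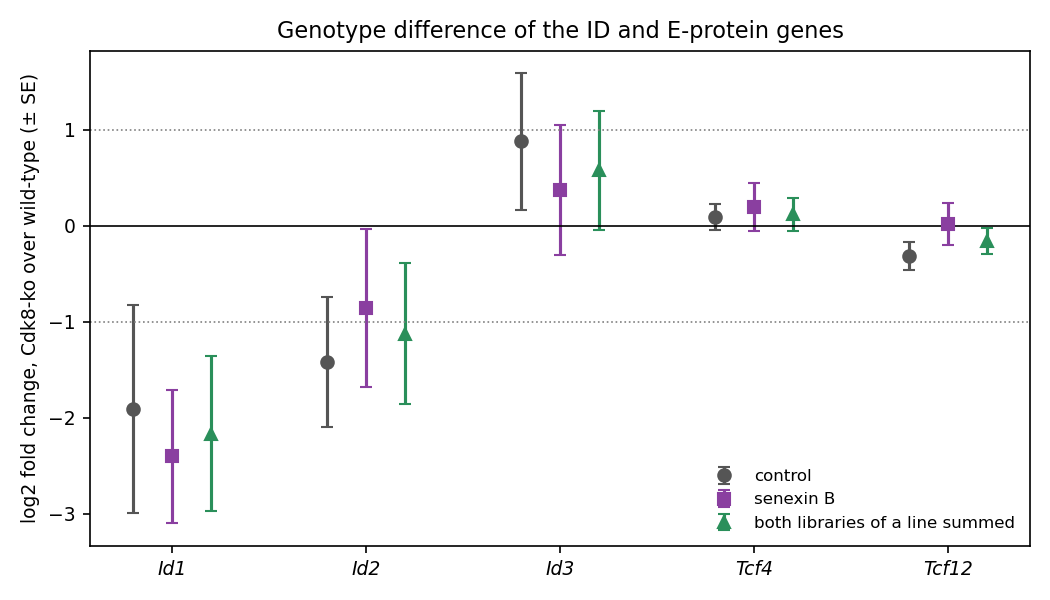
Log2 fold change of Cdk8-ko over wild-type lines (vertical axis) for each of the 5 genes, from the control libraries (circles), the senexin B libraries (squares) and the summed libraries of each line (triangles), with bars of 1 SE from the edgeR fit. Dotted lines mark the fold limit of 1. The *Id1* and *Id2* points lie below 0 and *Id3* above it with long bars, the *Tcf4* and *Tcf12* points lie near 0 with short ones, and no value passed the adjusted test.

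The inhibitor comparison asked how the same genes respond when the kinase is inhibited. Each line was measured in both media, and libraries of 1 line resembled each other much more than libraries of different lines, so the difference within each line is given. *Id1* and *Id3* were higher and *Tcf4* lower in senexin B in most lines, *Id2* and *Tcf12* went both ways, and none of the 5 passed the test. Of all genes, 1.97% were higher and 2.59% lower in every line. The share that went the same way in most but not all lines was not counted, so such line counts have no background here. Without a line term edgeR called 0 of 14164 genes over the 8 lines (0%) and DESeq2 17, with 4.86% of genes under an unadjusted p of 0.05 in edgeR. With each line as a block in the model it called 134 genes (0.946%), 373 (2.63%) had an adjusted p under 0.05 whatever their fold, and 16.4% had an unadjusted p under 0.05. The responses of line 1 in the 2 genotypes deviated from the other lines in the same way (r of 0.533 across genes), so blocked values without both lines numbered 1, a fit added after seeing the data, are given beside the results they change. That fit called 361 genes.

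Senexin B over control in *Id1* was 2.66-fold, 1.88-fold, 2.99-fold and 1.30-fold in wild-type lines 1 to 4, so all 4 were higher. In the Cdk8-ko lines the ratio was 0.827, 1.17, 1.18 and 16.1, and the last of these sets 17 reads against 1, with a 95% counting interval of 2.52 to 672 (exact conditional interval). The Cdk8-ko lines thus gave 1 lower value, 2 slightly higher ones and 1 whose size could not be measured at this depth. Over all 8 lines the log2 fold change with line as a block was 0.78 (SE 0.28, unadjusted p = 0.0163, adjusted p = 0.180), and without the block 0.49 (SE 0.65, adjusted p = 1.00). Without Cdk8-ko line 4 the blocked value was 0.64 (adjusted p = 0.226).

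*Id3* in wild-type lines 1 to 4 was at 0.988, 2.68, 2.08 and 11.2 times its control level, and in the Cdk8-ko lines at 0.596, 1.35, 1.76 and 1.68 times. Line 1 of each genotype was the exception to a higher level in senexin B, and wild-type line 4 went from the lowest value of the 16 libraries, 4.13 CPM, to 46.3 CPM (59 and 603 reads). The blocked log2 fold change over all lines was 0.84 (SE 0.35, unadjusted p = 0.0343, adjusted p = 0.253). Without wild-type line 4 it was 0.55 (SE 0.22, adjusted p = 0.302), and without both lines numbered 1, the 2 lines that were lower in senexin B, it was 1.23 (SE 0.32, adjusted p = 0.0503).

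*Id2* showed no common direction. It was at 1.23, 1.05, 0.494 and 0.509 times control in wild-type lines 1 to 4 and at 1.10, 0.698, 1.05 and 1.87 times in the Cdk8-ko lines. It was higher in 5 lines and lower in 3, and the blocked log2 fold change was -0.11 (SE 0.20, adjusted p = 0.847), against 0.044 (SE 0.55) without the block.

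*Tcf4* was at 0.577, 0.760, 0.867 and 0.971 times control in wild-type lines 1 to 4 and at 0.644, 0.852, 0.850 and 1.05 times in the Cdk8-ko lines. It was lower in 7 of 8 lines, with line 1 of each genotype the lowest ratio and Cdk8-ko line 4 the exception. The blocked log2 fold change was -0.31 (SE 0.099, unadjusted p = 0.00902, adjusted p = 0.135), and without the block it was -0.28 (SE 0.14, adjusted p = 1.00). With lines left out one at a time, its blocked adjusted p ran from 0.123 to 0.237, and without both lines numbered 1 the value was -0.17 (SE 0.090, adjusted p = 0.270). Of the 5 plasmacytoid dendritic cell markers, 3 were tested. With the block, *Ly6d*, which also marks lymphoid progenitors, was higher in 8 of 8 lines (log2 fold change 2.92, SE 0.32, adjusted p = 0.00158), *Bst2* was higher in 8 of 8 (0.53, SE 0.11, adjusted p = 0.0282), and *Irf7* was lower in 7 of 8 (-1.07, SE 0.26, adjusted p = 0.0508). Their summed level was 14.3 to 34.5 CPM in wild-type control, 26.9 to 51.0 in wild-type senexin B, 15.3 to 35.1 in Cdk8-ko control and 19.1 to 36.2 in Cdk8-ko senexin B. *Siglech*, which defines these cells, was at 0 in all wild-type libraries and had a mean of at most 0.0313 CPM in the Cdk8-ko groups. The part of these cells in the *Tcf4* values was not tested.

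*Tcf12* was at 1.33, 0.665, 0.708 and 0.819 times control in wild-type lines 1 to 4 and at 1.29, 1.16, 0.784 and 0.992 times in the Cdk8-ko lines. Line 1 of each genotype and Cdk8-ko line 2 were higher and the other 5 lines lower. The blocked log2 fold change was -0.093 (SE 0.12, adjusted p = 0.779), and without both lines numbered 1 it was -0.25 (SE 0.11, adjusted p = 0.205).

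**Figure D3:**
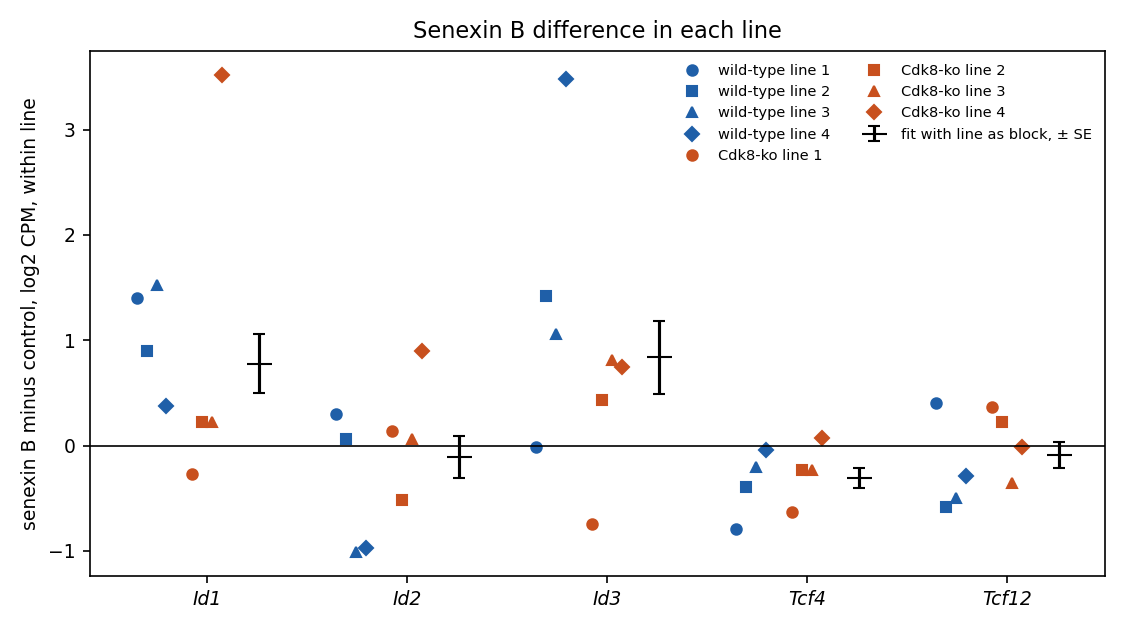
Difference in log2 CPM (with a prior count of 0.5) between the senexin B and control libraries of each line, for the 5 genes, with wild-type lines in blue and Cdk8-ko lines in orange. The black bar is the edgeR estimate over the 8 lines with line as a block, ± 1 SE. *Id1* points lie above 0 in 7 of 8 lines, *Id3* points in 6 and *Tcf4* points below 0 in 7, while *Id2* and *Tcf12* points fall on both sides.

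Within the wild-type lines alone, with the block, *Id1* had a log2 fold change of 1.01 (SE 0.27, unadjusted p = 0.00457, adjusted p = 0.218), *Id3* of 1.41 (SE 0.51, unadjusted p = 0.0265, adjusted p = 0.394) and *Tcf4* of -0.35 (SE 0.16, adjusted p = 0.518). In that fit 10.3% of 12989 genes had an unadjusted p under 0.05 and 45 (0.346%) were called. *Id1* was higher in all 4 wild-type lines, as were 8.47% of genes, and *Tcf4* was lower in all 4, as were 9.47%. Within the Cdk8-ko lines the blocked values were 0.43 (SE 0.47) for *Id1*, 0.35 (SE 0.25) for *Id3* and -0.26 (SE 0.12) for *Tcf4*, with adjusted p of 0.796, 0.669 and 0.524, where 10.3% of 13285 genes had an unadjusted p under 0.05 and 7 (0.0527%) were called.

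The difference between the genotypes was tested directly. With the block, the senexin B response of the Cdk8-ko lines minus that of the wild-type lines was -0.54 (SE 0.58) for *Id1*, -1.05 (SE 0.63) for *Id3*, 0.53 (SE 0.38) for *Id2*, 0.10 (SE 0.20) for *Tcf4* and 0.30 (SE 0.24) for *Tcf12* on the log2 scale. The lowest adjusted p among them was 0.991, and with an unadjusted limit of 0.05 none of the 5 passed, against 3.24% of genes with the block and 0.473% without it. No difference in response between the genotypes was detectable for these genes with 4 lines each.

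Of 35 tests of the 5 genes (7 comparisons, without the block), 0 were called by edgeR and 2 had an unadjusted p under 0.05. Both were for *Id1* between genotypes, in senexin B and in the summed lines, where 1.55% and 2.49% of all genes had such a p. With the block, *Id1*, *Id3* and *Tcf4* were under that limit for senexin B over all lines, against 16.4% of genes. *Id1* and *Id3* were so in wild-type lines, against 10.3%, and 0 of the 5 in Cdk8-ko lines. DESeq2 called none of the 5 genes, with and without the block. Their lowest adjusted p over all alternatives run was 0.0503, for *Id3* in senexin B without both lines numbered 1.

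The summed *Id1*, *Id2* and *Id3* level per kb, divided by the summed *Tcf4* and *Tcf12* level per kb, was taken as a description, with no test. *Tcf3* is left out of this ratio, although it is the most abundant E-protein gene, with group means of 101 to 120 CPM per kb. The highest ID sum, in Cdk8-ko senexin B line 4, was 87.5 CPM per kb, below every *Tcf3* group mean. The levels of *Tcf4* and *Tcf12* also divide by merged models of 27382 and 15529 bases, more than a single transcript has. A ratio above 1 therefore does not mean that ID transcripts exceeded E-protein transcripts, or those of *Tcf4* and *Tcf12* alone. In control the wild-type lines 1 to 4 had ratios of 1.56, 1.81, 0.946 and 1.73, and the Cdk8-ko lines 0.698, 0.957, 1.85 and 2.36. In senexin B the ratios were 1.71, 3.44, 2.34 and 2.58 in the wild-type lines and 0.471, 0.972, 3.64 and 4.07 in the Cdk8-ko lines. All 4 wild-type lines and 3 of the 4 Cdk8-ko lines had a higher ratio in senexin B than in control, and the Cdk8-ko lines fell into lines 1 and 2, below 1, and lines 3 and 4, at 1.85 or above.

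**Figure D4:**
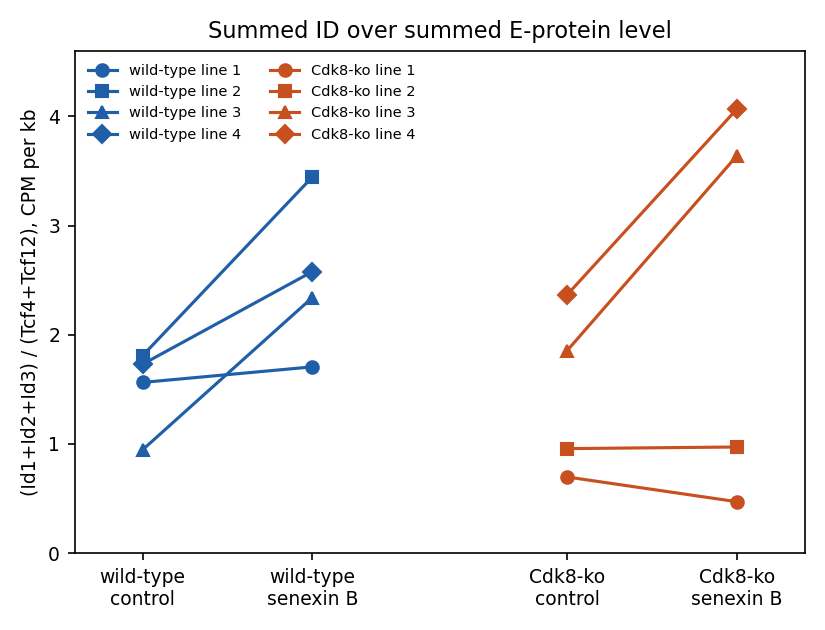
Summed level per kb of *Id1*, *Id2* and *Id3* divided by that of *Tcf4* and *Tcf12* (vertical axis, linear from 0) in each library, with a line joining the control and senexin B libraries of 1 cell line. The ratios, which leave out *Tcf3*, run from 0.471 to 4.07, and 7 of the 8 lines are higher in senexin B.

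Of 17 genes of BMP and SMAD signalling, 12 were tested between the control groups and 13 over the 8 lines in senexin B. None was called by genotype, where the list median was 0.18 against 0.0017 for all genes. The 2 with the lowest p were *Smad4*, the shared SMAD partner, with a log2 fold change of -0.32 (SE 0.13, adjusted p = 0.897), and *Smad7*, with 0.25 (SE 0.15, adjusted p = 0.908).

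In senexin B *Smad7*, an inhibitory SMAD that is itself a target of the pathway, had 26.2, 23.8, 31.2 and 26.3 CPM in the wild-type control lines and 37.0, 50.3, 41.9 and 62.7 CPM in their senexin B libraries. In the Cdk8-ko lines it had 30.5, 28.6, 38.8 and 29.5 CPM in control and 36.6, 41.9, 66.5 and 55.1 CPM in senexin B. It was higher in 8 of 8 lines, as were 1.97% of all genes, and the blocked log2 fold change was 0.72 (SE 0.11, adjusted p = 0.00869). It passed the adjusted p limit and not the fold limit, its adjusted p without the block was 0.288, and with lines left out the blocked adjusted p stayed between 0.00482 and 0.0279. *Bambi*, a decoy receptor, had a blocked log2 fold change of 0.33 (adjusted p = 0.284). *Bmpr2*, a BMP receptor named here after its value was seen, was lower in 8 of 8 lines with a blocked value of -0.56 (SE 0.13, adjusted p = 0.0421), which was not run with lines left out. These 2 of 13 genes stand against 2.63% of all genes past the adjusted limit in that fit, and the list median without the block was -0.028 against 0.0065 for all genes.

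All 5 EGR genes and co-repressors were tested. *Egr3*, an EGR factor that activates *Id3* in lymphocytes, was at 0.923, 0.377, 0.429 and 0.769 CPM in the wild-type control lines and at 4.75, 1.14, 2.67 and 2.84 CPM in senexin B. In the Cdk8-ko lines it was at 0.436, 1.00, 0.507 and 2.28 CPM in control and at 2.07, 2.68, 3.58 and 1.11 CPM in senexin B. It was higher in 7 of 8 lines, all but Cdk8-ko line 4, and with the block it passed both limits (log2 fold change 1.71, SE 0.37, adjusted p = 0.0341). *Egr3* had 6 to 66 reads per library, so this call rests on low counts. Without the block its adjusted p was 0.532. The blocked call was lost when any line other than Cdk8-ko line 4 was left out (adjusted p from just over 0.05 up to 0.0937), and without Cdk8-ko line 4 the adjusted p was 0.00200. Without both lines numbered 1 it was 0.0611.

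*Egr1* was lower in senexin B in 7 of 8 lines, with Cdk8-ko line 1 as the exception (99.1 and 215 CPM), and the blocked log2 fold change was -0.84 (SE 0.31, adjusted p = 0.204). Without both lines numbered 1, which leaves out that exception, it was -1.21 (SE 0.24, adjusted p = 0.0173), past both limits. Between the control groups *Egr1* was at 330 ± 191 CPM (SD, n = 4) in wild-type and 131 ± 53.1 CPM (SD, n = 4) in Cdk8-ko lines, with a log2 fold change of -1.33 (SE 0.46, adjusted p = 0.897). *Nab2*, a co-repressor of EGR factors, had a log2 fold change of -1.97 (SE 0.76, adjusted p = 0.897) in the same comparison. Between the senexin B groups the log2 fold changes of the 5 ran only from -0.39 to 0.024. There *Egr1* was at 81.0 to 158 CPM in wild-type and 71.4 to 215 CPM in Cdk8-ko lines. The median of the 5 was -0.26 between genotypes in control and -0.017 for senexin B over control in all lines without the block.

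*Tcf3* had a log2 fold change of -0.059 (SE 0.23, adjusted p = 0.983) between the control groups and a blocked one of 0.13 (SE 0.13, adjusted p = 0.707) in senexin B. Of 16 tissue-restricted helix-loop-helix genes whose products pair with E proteins, 3 were expressed highly enough to be tested. None was called, and *Lyl1* and *Tal1*, known from T-cell leukaemia, had values of -0.045 (SE 0.21) and 0.87 (SE 0.71) by genotype and blocked values of 0.18 (SE 0.10) and -0.072 (SE 0.17) in senexin B. The list medians were -0.0051 by genotype and 0.099 in senexin B without the block. Of 12 cofactors, 9 were tested, with medians of -0.095 by genotype and -0.15 in senexin B. *Lmo4* and *Lmo2*, adaptors in complexes with E proteins, had log2 fold changes of -0.68 (SE 0.24, adjusted p = 0.897) and -0.77 (SE 0.42, adjusted p = 0.908) between the control groups. In senexin B *Kat2b*, a histone acetyltransferase, was lower in 8 of 8 lines, as were 2.59% of all genes, with a blocked log2 fold change of -0.40 (SE 0.081, adjusted p = 0.0236). Its adjusted p was above 0.05 without wild-type line 3 (0.0595), wild-type line 4 (0.0646) or Cdk8-ko line 3 (0.0504). *Ep300*, the gene of the co-activator p300, had a blocked value of -0.26 (SE 0.092, adjusted p = 0.178).

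All 20 B-lineage genes known as E-protein targets were tested, and none was called by edgeR in either comparison. Between genotypes 16 had a positive and 4 a negative log2 fold change in control (median 0.17, against 0.0017 for all genes), 8 and 12 in senexin B (median -0.14), and 11 and 9 in the summed lines (median 0.018). For senexin B over control without the block, 16 were positive and 4 negative in wild-type lines (median 0.21), 8 and 12 in Cdk8-ko lines (median -0.049), and 13 and 7 over all lines (median 0.11). The interaction was positive for 4 and negative for 16 of them (median -0.23), with none called. The list thus had no common direction across media or genotypes. *Rag1* and *Rag2*, which encode the recombinase of immunoglobulin genes, were at 2.71 ± 0.921 and 1.34 ± 1.19 CPM (SD, n = 4) in wild-type and at 30.9 ± 31.5 and 16.5 ± 15.3 CPM (SD, n = 4) in Cdk8-ko control lines. For both genes the control groups did not overlap, which was the case in this direction for 1.48% of genes. The log2 fold changes were 3.51 (SE 0.70) and 3.60 (SE 0.93), with an adjusted p of 0.897 in edgeR and of 4.29e-05 and 0.00698 in DESeq2. In senexin B the groups of both genes overlapped. *Rag1* was at 1.22 to 13.6 CPM in wild-type and 4.07 to 123 CPM in Cdk8-ko lines, and *Rag2* at 0.503 to 7.86 and 1.78 to 44.9 CPM. In senexin B *Cd79b*, a signalling chain of the B-cell receptor, was lower in 8 of 8 lines (443 to 1322 CPM over the libraries), with a blocked log2 fold change of -0.38 (SE 0.081, adjusted p = 0.0308) that passed 0.05 only without wild-type line 2 (0.0415) when lines were left out one at a time, and was at 0.0546 without both lines numbered 1. *Irf4*, a regulator of light-chain rearrangement, was higher in 7 of 8 lines and lower in Cdk8-ko line 1 (319 and 250 CPM). Its blocked value was 0.43 (SE 0.12, adjusted p = 0.0893). Without both lines numbered 1, which leaves out its only lower line, the value was 0.56 (SE 0.10, adjusted p = 0.00851).

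**Figure D5:**
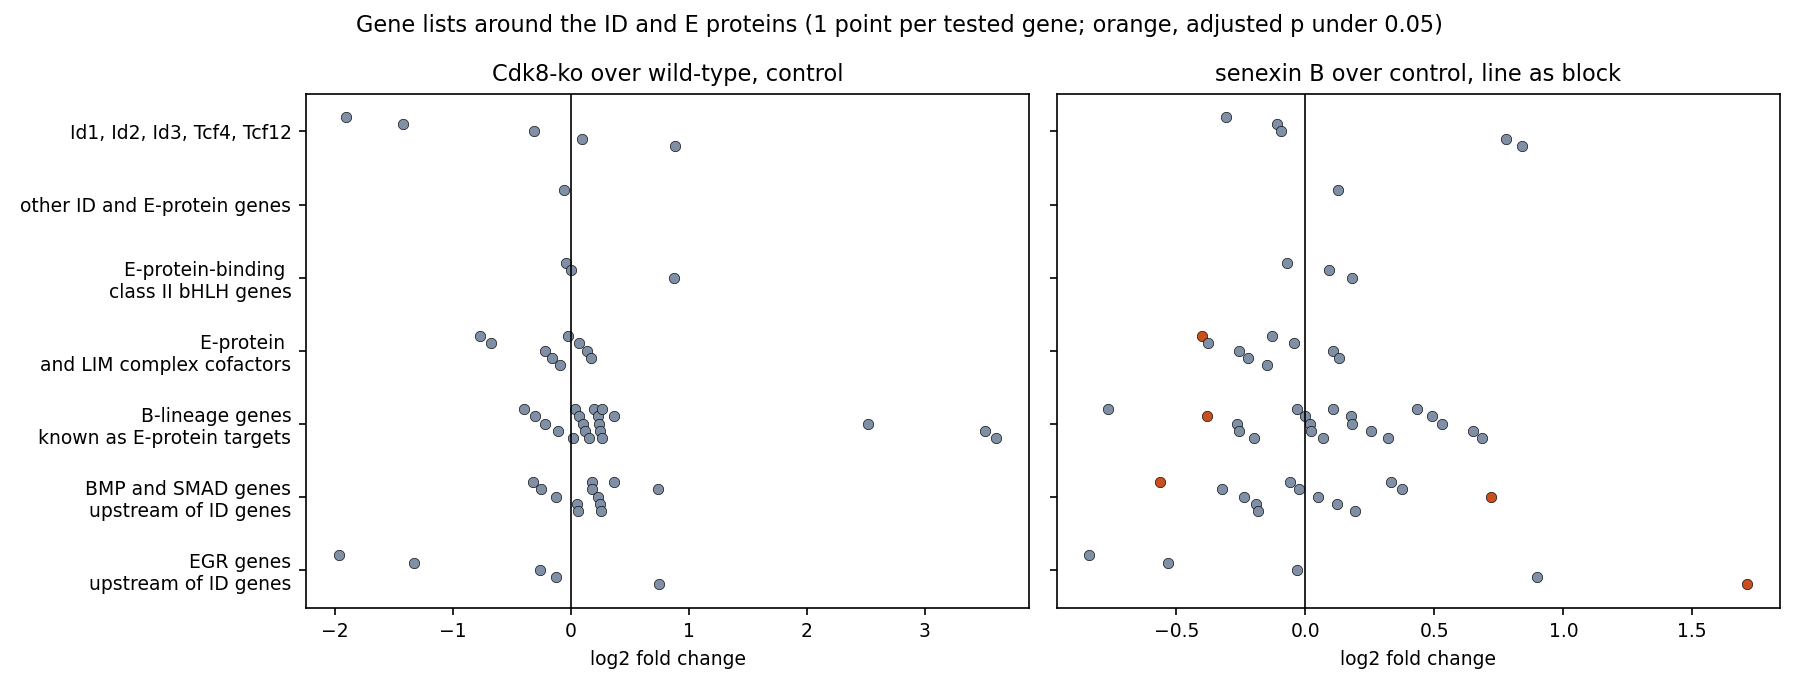
Log2 fold change of each tested gene of the lists, for Cdk8-ko over wild-type in control (left) and for senexin B over control with line as a block (right), each with its own horizontal scale. Orange points have an adjusted p under 0.05 over all genes tested. There are none on the left and 5 on the right, *Kat2b*, *Cd79b*, *Bmpr2*, *Smad7* and *Egr3*, and none of them is one of the 5 ID and E-protein genes.

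Over the 16 libraries, which come from 8 lines and so are not independent, the Pearson correlation of log2 CPM was computed between each of the 5 genes and 11552 others, as a description. *Id1* was closest to *Errfi1* (r = 0.879), *Tinf2* (0.804) and *Rftn2* (0.799). *Id2* was closest to *Coa4* (0.902), *Cmtm7* (0.871) and *Syvn1* (0.846), and *Id3* to *Pax7* (0.952), *Bub1b* (0.911) and *Sorcs2* (0.880). *Tcf4* was closest to *Mapre2* (0.849), *Bnip2* (0.835) and *Pccb* (0.823), and *Tcf12* to *Nfe2l1* (0.950), *Slc7a5* (0.934) and *Dpy19l3* (0.920). No gene stood in more than 1 of these lists. Among themselves the strongest relation was between *Id3* and *Tcf12* (r = -0.717), and the other pairs lay between -0.466 and 0.350.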

How the data were processed

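Poly(A)-selected libraries (Lexogen SENSE kit, 50 bp single-end reads) were made from 8 lines in 2 media. The deposited values are raw read counts per gene. According to the study's methods and the file headers, the authors trimmed reads with Trimmomatic 0.36, aligned them with STAR 2.5.2b to GRCm38 and counted exons of GENCODE M13 with featureCounts 1.5.1 with no strand option. The header of 1 library names another annotation folder, with identical gene models. All 16 libraries were used and groups came from the labels. The labels do not say how the lines were derived, so p-values refer to these lines only. Between genotypes, with 1 library per line, they measure the spread between lines. With line as a block they measure the spread of the senexin B difference within lines. Senexin B and interaction fits without the block treat the 2 libraries of a line as independent.

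Counts were tested with edgeR 4.0.16 (TMM, filterByExpr, robust quasi-likelihood test, limma 3.58.1, R 4.3.3) over all genes passing the filter, with Benjamini-Hochberg adjustment. Genes were called with an adjusted p below 0.05 where the fold change also exceeded 1 on the log2 scale, in either direction. CPM are counts per 1000000 assigned reads after library totals were scaled by TMM factors, and differences in log2 CPM used a prior count of 0.5. Alternatives were DESeq2 1.42.0, RLE size factors, other filters and limits, libraries left out in turn, all groups in 1 fit, and line as a block. Same-numbered control and senexin B libraries deviated together within each genotype (mean r of 0.717, from 0.598 to 0.767, in wild-type and of 0.825, from 0.770 to 0.865, in Cdk8-ko lines), so the numbers pair libraries of 1 line. Across genotypes the mean r was 0.00829 (from -0.154 to 0.275) in control and 0.101 (from -0.133 to 0.408) in senexin B. A number was therefore not taken to pair lines by level across genotypes, although single numbers shared part of a pattern. The senexin B responses of the lines numbered 1 in both genotypes deviated together (r of 0.533), those of numbers 2 to 4 at r of -0.069 to 0.168, and the labels do not say what a number marks.

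The 5 genes and the lists around them were chosen with earlier results of these data known. Of each pathway list, the text names genes called in a comparison and otherwise the 2 with the smallest unadjusted p. For the pattern comparison it names the 3 genes with the highest correlation, leaving out symbols that start with Gm or end in Rik. Marker lists were outside that rule, and a marker or other gene named outside it was chosen after its values were seen. Intervals cover counting error only.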

Additional observations from a re-analysis of the deposited data

Results flagged for a closer look

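A library was picked out when its gap to the nearest other library of its group of 4 was large relative to the range of the group (Dixon's test at the 95% level). Of 92 groups tested, 8 were picked out, and chance gives about 1 in 20. For the 5 ID and E-protein genes these were 2 of 20 groups, both in Cdk8-ko lines with senexin B: *Id1* was highest in line 1 at 2.52 CPM, and *Tcf4* was highest in line 4 at 211 CPM.

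Among the other genes, *Cdk8* was highest in wild-type senexin B line 1 (89.3 CPM) and in Cdk8-ko senexin B line 2 (61.6 CPM), and *Egr1* was highest in Cdk8-ko senexin B line 1 (215 CPM). Cdk8-ko control line 3 had the lowest *Lmo2* of its group (7.49 CPM) and the highest *Rag1* (77.8 CPM) and *Rag2* (39.4 CPM).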

How the results depend on the processing

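With DESeq2 in place of edgeR the calls numbered 32 for genotype in control (1 in edgeR), 10 for genotype in senexin B (0), 24 for the summed lines (1), 19 for senexin B in wild-type lines (0) and 17 over all lines (0). With the replicate block, which pairs the libraries of 1 line, the calls for senexin B were 45 in wild-type lines, 7 in Cdk8-ko lines and 134 over all lines, or 180, 77 and 183 with DESeq2 and the block. For genotype, numbers were not taken to pair lines by level. There the block gave 0 calls in control, and DESeq2 with the block gave 61 in control and 41 in senexin B. No paired analysis was possible because each line has 1 library for the summed lines.

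At least 10 counts as the filter gave 0 calls for genotype in control, 0 for the summed lines and 1 for senexin B over all lines. No filter gave 1 for genotype in senexin B and 3 for senexin B in wild-type lines, all 16 libraries in 1 fit gave 1 for genotype in senexin B, and an adjusted p limit of 0.1 gave 1 there and 1 for senexin B over all lines. Combinations chosen after seeing the data gave 135 calls (block with RLE) and 185 (block with no filter). Leaving out both lines numbered 1 with the block gave 361. With libraries left out in turn the calls were 0 to 0 for genotype in control and 0 to 5 for senexin B over all lines, with lines left out 0 to 2 for the summed lines, and with lines left out in the blocked fit 80 to 178 for senexin B over all lines.

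For the 5 genes, 591 of 631 alternative values kept their direction and their side of the limits, 40 changed sign and 0 were called. The sign changed for genotype in senexin B with the block in *Id3* (-0.075, and -0.077 with DESeq2) and *Tcf12* (-0.0067 and -0.0046), and for senexin B over all lines in *Id2* (-0.11 with the block, -0.12 with DESeq2 and the block, -0.11 with the block and RLE, -0.11 with the block and no filter, and -0.21 with the block and without both lines numbered 1, where *Tal1* was 0.088). Leaving out libraries moved log2 fold changes across 0 for genotype in control in *Tcf3* (-0.21 to 0.16), *Lyl1* (-0.17 to 0.14) and *Tcf4* (-0.012 to 0.16), and for genotype in senexin B in *Tcf12* (-0.16 to 0.14), *Id3* (-0.17 to 0.73) and *Tcf4* (-0.052 to 0.30). It did so for senexin B in *Id2* in wild-type lines (-1.08 to 0.26), in *Id1* (-0.19 to 1.22), *Tcf12* (-0.10 to 0.21) and *Id2* (-0.30 to 0.58) in Cdk8-ko lines, and in *Id2* (-0.31 to 0.30) and *Tal1* (-0.28 to 0.13) over all lines. *Tcf3* stayed positive over all lines with libraries left out (0.065 to 0.23) and ran from -0.0029 to 0.19 with lines left out in the blocked fit, where *Id2* ran from -0.26 to 0.027 and *Tal1* from -0.17 to 0.0077. With libraries left out, the sign also changed for the interaction in *Tcf4* (-0.15 to 0.21), *Id1* (-1.68 to 0.48) and *Id2* (-0.058 to 1.42), and with lines left out for the summed lines in *Tcf4* (-0.051 to 0.19). The causes were not tested. Of the 5 genes, *Id1*, with 1 to 210 reads per library, is the one most limited by depth.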
